A study of Mus musculus with 3 samples.

Results

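The GATA transcription factor genes Gata1 to Gata6 and the FOG cofactor genes Zfpm1 (FOG1) and Zfpm2 (FOG2) were followed across 3 RNA-seq libraries of sorted endothelial cells made from mouse embryonic stem cells. These 8 genes were chosen by name as the GATA and FOG families, out of 23397 genes in the files. Of those genes 11080 reached 1 FPKM (fragments normalised to transcript length and library depth) in any library, and all 8 GATA and FOG genes were among them. Gata5 met that minimum in the knockout libraries and not in wild type.

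The WT library came from wild-type stem cells, SclKO from cells lacking Scl (now named Tal1), and the last from a line labelled as a knockout of Gata1 and Gata2 (Gata12KO). All 3 were grown into embryoid bodies, floating aggregates in which stem cells differentiate, in serum-containing medium. On day 4.75 cells positive for Tie2 and CD31 and negative for CD41 were sorted, and each group is 1 library. The labels used here name neither the alleles nor whether each line is 1 clone. The sort antigens were read as Tek (Tie2) at 62.9, 42.4 and 62.9 FPKM and Pecam1 (CD31) at 48.3, 50.4 and 66.5 FPKM in WT, SclKO and Gata12KO. Itga2b (CD41), the antigen sorted against, was still listed at 22.8, 0.333 and 17.6 FPKM.

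GATA factors are zinc-finger proteins named for the GATA core of the DNA motif they bind. Gata1, Gata2 and Gata3 are best known from blood: Gata2 from stem and progenitor cells and endothelium, Gata1 from erythroid cells and megakaryocytes, and Gata3 from T cells. Gata4, Gata5 and Gata6 are known from heart, endoderm and mesoderm. FOG proteins do not bind DNA at these sites themselves but bind the amino-terminal zinc finger of GATA factors and bring corepressors to them. In blood cells Gata1 and Gata2 also form complexes with Scl, Lmo2, Ldb1 and E proteins at sites that pair a GATA motif with an E-box (CANNTG).

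With 1 library per group there is no replicate check, no test and no p-value, and each statement describes these libraries. The bounds printed with each FPKM were deposited with it and lie 2 Poisson standard deviations away, so they cover counting error only. They also give the number of fragments behind a value. A gene is described as higher or lower where its ratio of FPKM + 1 was at least 2-fold, the bounds of both libraries did not overlap, and it reached 1 FPKM in any library. Ratios on that log2 scale understate differences of low genes, so plain ratios of FPKM are given as well. Implied library totals were 31.6, 28.3 and 50.4M (mega) fragments in WT, SclKO and Gata12KO.

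Gata1 is the master regulator of red cell and megakaryocyte genes. It lies on chromosome X from 7536386 to 7544941 on the reverse strand of mm9, in 6 exons. Gata1 was at 4.64 FPKM in WT (bounds 4.04 to 5.25, 238 fragments), listed at 0 in SclKO and at 5.66 FPKM in Gata12KO (5.13 to 6.18, 467 fragments). Gata1 was thus present in both libraries that carry Scl and lower in SclKO, with a log2 ratio of -2.50 against WT that depends on the 1 FPKM added. No fold is given against a value of 0, because the files also list Rplp0, a ribosomal protein gene that every cell uses, at 0 in all 3 libraries. Only 4 genes with at least 3 FPKM in both other libraries were listed at 0 in SclKO, namely Gata1, Gpihbp1, Snord37 and Snord89. In a sorted bulk sample, fewer cells that express a gene and less RNA per cell cannot be told apart.

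Gata2 is the GATA factor of blood progenitors and endothelium, and lies on chromosome 6 from 88148658 to 88157026 on the forward strand of mm9, in 6 exons. Its level was 12.05 FPKM in WT (11.3 to 12.8, 1164 fragments), 5.81 FPKM in SclKO (5.29 to 6.33, 500 fragments) and 44.9 FPKM in Gata12KO (43.9 to 46.0, 6957 fragments). All 3 libraries were separate by their bounds. SclKO held 2.08-fold less Gata2 than WT (range from the bounds 1.79 to 2.41), a log2 ratio of -0.94 that stayed short of the 2-fold limit on the FPKM + 1 scale. The library labelled Gata12KO held 3.73-fold more Gata2 than WT (3.44 to 4.06) and 7.74-fold more than SclKO (6.93 to 8.70).

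Neither targeted gene was therefore lower in the library labelled Gata12KO than in WT: the Gata1 bounds overlapped, at a 1.22-fold ratio, and Gata2 was higher. An FPKM covers the whole transcript, so loss of a single exon may not show in it, and coverage of single exons was not read. The values do not tell whether a functional protein was made. Gata12KO here stands for the library with that label.

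Gata3, best known from T cells, lies on chromosome 2 from 9778705 to 9800227 on the reverse strand of mm9, in 6 exons. It stood at 6.09 FPKM in WT (5.59 to 6.60, 584 fragments), 16.3 FPKM in SclKO (15.4 to 17.2, 1390 fragments) and 4.37 FPKM in Gata12KO (4.03 to 4.70, 670 fragments). Among the blood GATA genes Gata3 alone was higher in SclKO, by 2.67-fold (2.34 to 3.07). Gata12KO held 1.40-fold less than WT, short of the limit, and 3.73-fold less than SclKO, past it, a call lost under TPM at a log2 ratio of -0.99. TPM here means FPKM scaled to the same sum in each library. The Gata3 ratio of Gata12KO to WT turned positive, to a log2 of 0.19 from -0.40, under TPM, a scaling that moved the median of all expressed genes from -0.08 to 0.52.

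The order of Gata2 and Gata3 was therefore opposite in SclKO to that in both other libraries. Gata2 stood at 1.98 FPKM per FPKM of Gata3 in WT, 0.356 in SclKO and 10.3 in Gata12KO. These ratios within a library do not depend on how libraries are scaled.

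**Figure D1:**
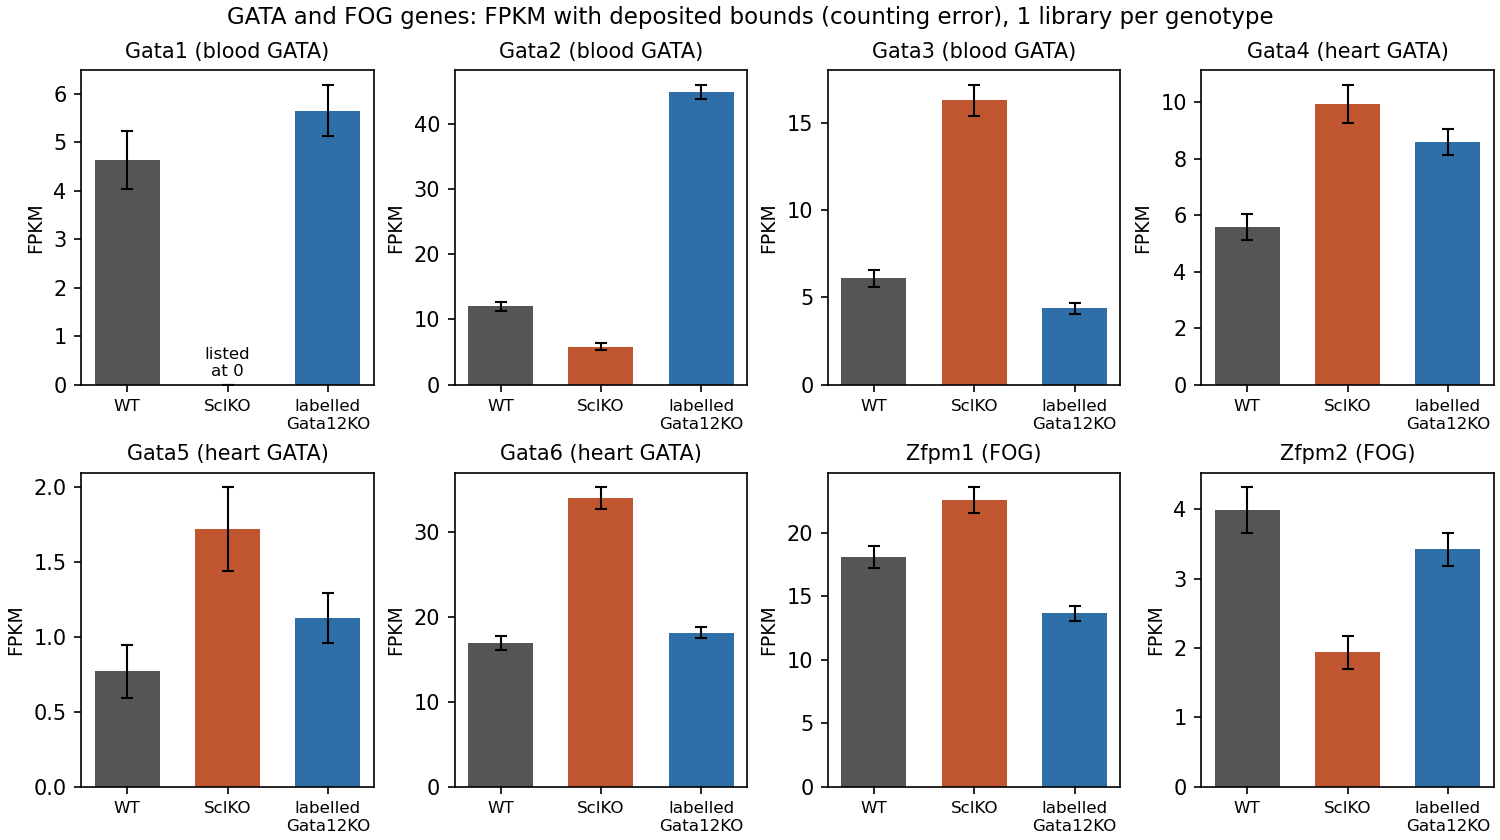
FPKM of each GATA and FOG gene (1 panel per gene, each with its own linear axis from 0) in WT, SclKO and Gata12KO, 1 library each; error bars are the deposited bounds, which cover counting error only. Gata1 is listed at 0 in SclKO, Gata2 is highest in Gata12KO at 44.9, and Gata3 and Gata6 are highest in SclKO at 16.3 and 34.0.

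The promoters of the 3 blood GATA genes are shown because these genes were the ones past the limit in any comparison. Windows run from 250 bases before to 50 after the start site, as given by RefSeq on GRCm38.p6, and are written on the gene's own strand. Capitals mark GATA motifs, searched on both strands in the form AGATAA or with the last base replaced, which gives AGATAG, and in the same pair of forms with a first T, which are TGATAA and with its last base replaced TGATAG. Capitals also mark the E-box, whose letters CANNTG read the same on both strands, and no match overlaps another. Of the 8 genes 5 matched this table, with 6 windows, since Gata2 has a pair of start sites. Shown are Gata1 (chrX:7967861-7968160, reverse strand), the second window of Gata2 (chr6:88198414-88198713, forward strand) and Gata3 (chr2:9878551-9878850, reverse strand).
Gata1: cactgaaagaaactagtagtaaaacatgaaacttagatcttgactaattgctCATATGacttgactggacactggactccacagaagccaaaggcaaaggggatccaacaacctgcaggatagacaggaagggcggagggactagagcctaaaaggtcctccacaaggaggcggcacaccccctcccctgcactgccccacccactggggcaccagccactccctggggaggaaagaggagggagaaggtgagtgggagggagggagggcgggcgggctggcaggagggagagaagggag
Gata2: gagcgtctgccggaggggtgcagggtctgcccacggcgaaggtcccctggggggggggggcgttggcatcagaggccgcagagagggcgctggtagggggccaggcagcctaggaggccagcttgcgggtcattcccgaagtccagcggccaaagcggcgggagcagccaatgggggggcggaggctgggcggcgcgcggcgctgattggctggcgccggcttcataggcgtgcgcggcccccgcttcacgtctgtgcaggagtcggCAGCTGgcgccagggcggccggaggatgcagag
Gata3: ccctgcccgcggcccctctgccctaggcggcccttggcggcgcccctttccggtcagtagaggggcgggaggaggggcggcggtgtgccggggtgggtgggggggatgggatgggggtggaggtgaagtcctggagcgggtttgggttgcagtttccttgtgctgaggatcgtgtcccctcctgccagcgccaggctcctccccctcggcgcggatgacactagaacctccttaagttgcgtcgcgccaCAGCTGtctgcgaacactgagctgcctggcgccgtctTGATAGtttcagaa

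Of these sequences the Gata3 window alone held a GATA match, TGATAG from position 37 after its start site, together with the E-box CAGCTG from position -1. The Gata2 window shown held CAGCTG at position 18 and its other window, chr6:88193641-88193940, held neither motif. The Gata1 window held the E-box CATATG at position -198. In the Gata5 window, chr2:180334630-180334929, CACGTG stood at position -138, and the Zfpm1 window, chr8:122281891-122282190, held neither motif. A GATA match was in 1 and an E-box in 4 of the 6 windows, while 29.8% and 72.3% of all 32851 RefSeq windows held one. The windows of these genes were rich in G and C, from 57.3% to 73.7% beside a median of 52.7%. A match is a description of letters and no measured site.

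The heart GATA genes were each at their highest FPKM in SclKO, though under TPM Gata4 and Gata5 were above SclKO in Gata12KO, by log2 ratios of 0.57 and 0.14. Gata4, needed for heart tube formation, lies on chromosome 14 from 63817752 to 63864097 on the reverse strand, in 7 exons. Its level was 5.57 FPKM in WT (5.10 to 6.04), 9.94 FPKM in SclKO (9.28 to 10.6) and 8.60 FPKM in Gata12KO (8.14 to 9.06). Gata4 was 1.78-fold above WT in SclKO (1.54 to 2.08) and 1.54-fold above it in Gata12KO, both with separate bounds and both short of the limit.

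Gata5, a factor of endocardial cells, lies on chromosome 2 from 180059793 to 180069384 on the reverse strand, in 6 exons. It was the lowest of the heart factors, with 0.772 FPKM in WT (0.593 to 0.950, 75 fragments), 1.72 FPKM in SclKO (1.44 to 2.00, 151 fragments) and 1.13 FPKM in Gata12KO (0.959 to 1.30, 178 fragments). Gata5 in SclKO was 2.23-fold the WT level, with a wide range of 1.52 to 3.37, and its log2 ratio with 1 FPKM added was 0.62. The antisense gene Gata5os overlaps it at 0.0212 FPKM in WT and under that in the others. No label used here says whether counting used strand, so reads of the pair cannot be told apart.

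Gata6, known from heart, gut and vessel wall, lies on chromosome 18 from 11052508 to 11085633 on the forward strand, in 7 exons. It was the most abundant heart GATA gene in every library, at 16.98 FPKM in WT (16.1 to 17.8), 34.0 FPKM in SclKO (32.8 to 35.3) and 18.2 FPKM in Gata12KO (17.5 to 18.9). SclKO held 2.00-fold the WT level of Gata6 (1.84 to 2.19), and the log2 ratio of 0.96 with 1 FPKM added stayed just under the limit. The bounds of Gata6 in WT and Gata12KO overlapped. Gata6 made up 72.8% of the summed heart GATA level in WT, 74.5% in SclKO and 65.2% in Gata12KO.

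The FOG genes lay on opposite sides of their WT levels in SclKO, both short of the limit. Zfpm1, the partner of Gata1 in red cells and megakaryocytes, lies on chromosome 8 from 124806041 to 124861147 on the forward strand, in 10 exons. It was listed at 18.1 FPKM in WT (17.3 to 18.9), 22.6 FPKM in SclKO (21.6 to 23.6) and 13.7 FPKM in Gata12KO (13.1 to 14.2). Zfpm1 was thus not lower where its partner Gata1 was listed at 0, but 1.25-fold above WT (1.14 to 1.37), while Gata12KO was 1.32-fold below WT. Under TPM the ratio of Gata12KO to SclKO for Zfpm1 turned to a log2 of 0.09.

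Zfpm2, the partner of Gata4 in heart, lies on chromosome 15 from 40486588 to 40936138 on the forward strand, in 8 exons. It stood at 3.99 FPKM in WT (3.67 to 4.32), 1.94 FPKM in SclKO (1.70 to 2.18) and 3.42 FPKM in Gata12KO (3.18 to 3.66). In SclKO Zfpm2 was 2.06-fold below WT (1.68 to 2.54), the opposite direction to Gata4, and in Gata12KO 1.17-fold below. Zfpm1 stood at 4.54 FPKM per FPKM of Zfpm2 in WT, 11.6 in SclKO and 4.00 in Gata12KO. Against WT, the direction of both FOG genes in Gata12KO turned under TPM, to log2 ratios of 0.28 for Zfpm1 and 0.40 for Zfpm2, and that of Zfpm2 also with the sum over transcripts of 300 nt or longer made equal, to 0.07.

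By order of level, Zfpm1 led in WT with Gata6 next, a pair whose bounds overlapped. Gata2 followed, separate from both, then Gata3, Gata4, Gata1 and Zfpm2, in which neighbours overlapped, and Gata5 came last. In SclKO Gata6 led, followed by Zfpm1, Gata3, Gata4 and Gata2, each separate from the next. Zfpm2 and Gata5 overlapped there, above Gata1. In Gata12KO Gata2 led, followed by Gata6, Zfpm1, Gata4, Gata1, Gata3, Zfpm2 and Gata5, and every neighbouring pair was separate. Gata2 lay at the 62.2 percentile of expressed genes in WT, 41.4 in SclKO and 90.6 in Gata12KO, while Gata6 lay at 71.8, 85.9 and 75.5.

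The balance of blood and heart GATA genes was near even in WT and shifted in opposite directions in the other libraries. Blood GATA genes (Gata1, Gata2, Gata3) summed to 22.8 FPKM in WT, 22.1 in SclKO and 55.0 in Gata12KO. Heart GATA genes (Gata4, Gata5, Gata6) summed to 23.3, 45.7 and 27.9 FPKM. The blood share of the summed level was 49.4% in WT (45.8 to 53.0 from the bounds), 32.6% in SclKO (30.2 to 35.1) and 66.3% in Gata12KO (64.5 to 68.1), with no overlap between libraries. The blood sum itself was nearly level between WT and SclKO, as it held less Gata1 and Gata2 and more Gata3 in SclKO.

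Gata2 made up 52.9% of the blood GATA sum in WT, 26.3% in SclKO and 81.8% in Gata12KO, and Gata3 made up 26.7%, 73.7% and 7.95%. With Gata3 left out of the blood factors the share was 41.7%, 11.3% and 64.4%. With Gata2 left out instead it was 31.5%, 26.3% and 26.4%, so without Gata2 the share in Gata12KO was not above that of WT. GATA genes together stood at 2.09 FPKM per FPKM of FOG in WT, 2.77 in SclKO and 4.85 in Gata12KO.

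**Figure D2:**
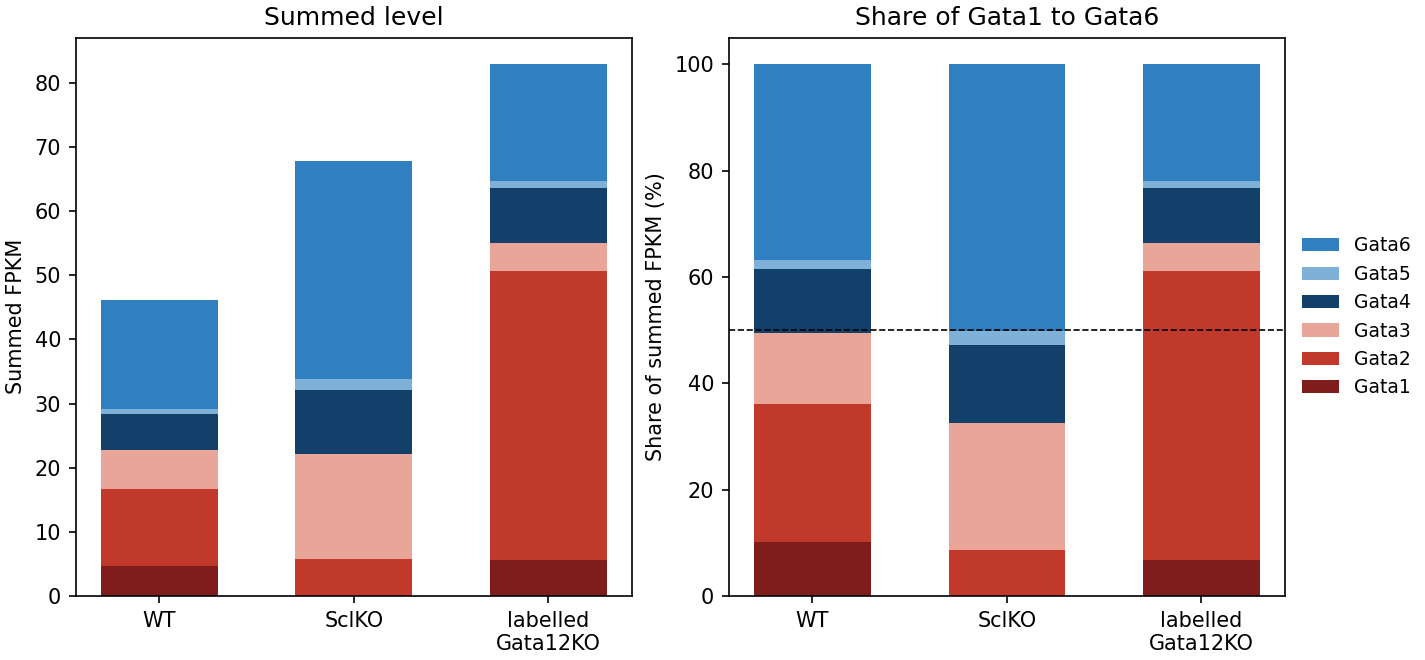
Stacked FPKM of Gata1 to Gata6 (left) and the share of each in their sum in percent (right, with a dashed line at equal blood and heart shares) in WT, SclKO and Gata12KO, 1 library each; blood GATA genes are red and heart GATA genes blue. The heart sum is larger in SclKO (45.7 against 22.1) and the blood sum is larger in Gata12KO (55.0 against 27.9), where Gata2 makes up most of it.

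In SclKO against WT, 1 of the 8 genes was higher (Gata3) and 1 was lower (Gata1), where 2.12% and 4.24% of all 11080 expressed genes were. The bounds were separate for 8 of 8, beside 58% of all genes. Gata3, Gata4, Gata5, Gata6 and Zfpm1 were on the higher side and Gata1, Gata2 and Zfpm2 on the lower side, and no scaling tried turned any of them. In Gata12KO against WT, 1 gene was higher (Gata2) and 0 were lower, beside 0.767% and 3.75% of all genes, and bounds were separate for 6, beside 61.8%. In Gata12KO against SclKO, 2 genes were higher (Gata1, Gata2) and 1 was lower (Gata3), beside 3.38% and 3.75%, with separate bounds for 8, beside 58.3%. The first pair of comparisons share the WT library, and the third is made of the same libraries, so their values are given side by side and are not independent.

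Scaling between libraries moved the background of these counts. Of all genes past the limit, the share that was lower in SclKO than WT was 66.7%, with 75.9% under TPM and 53.1% with the sum over transcripts of 300 nt or longer made equal. In Gata12KO against WT it was 83%, with 8.05% under TPM, 44.1% under the sum over longer transcripts and 61.0% with the trend over transcript length removed. In Gata12KO against SclKO it was 52.6%, with 5.31% and 38.9% under the same sums. Gata2 was higher in Gata12KO than in either other library under every one of these.

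**Figure D3:**
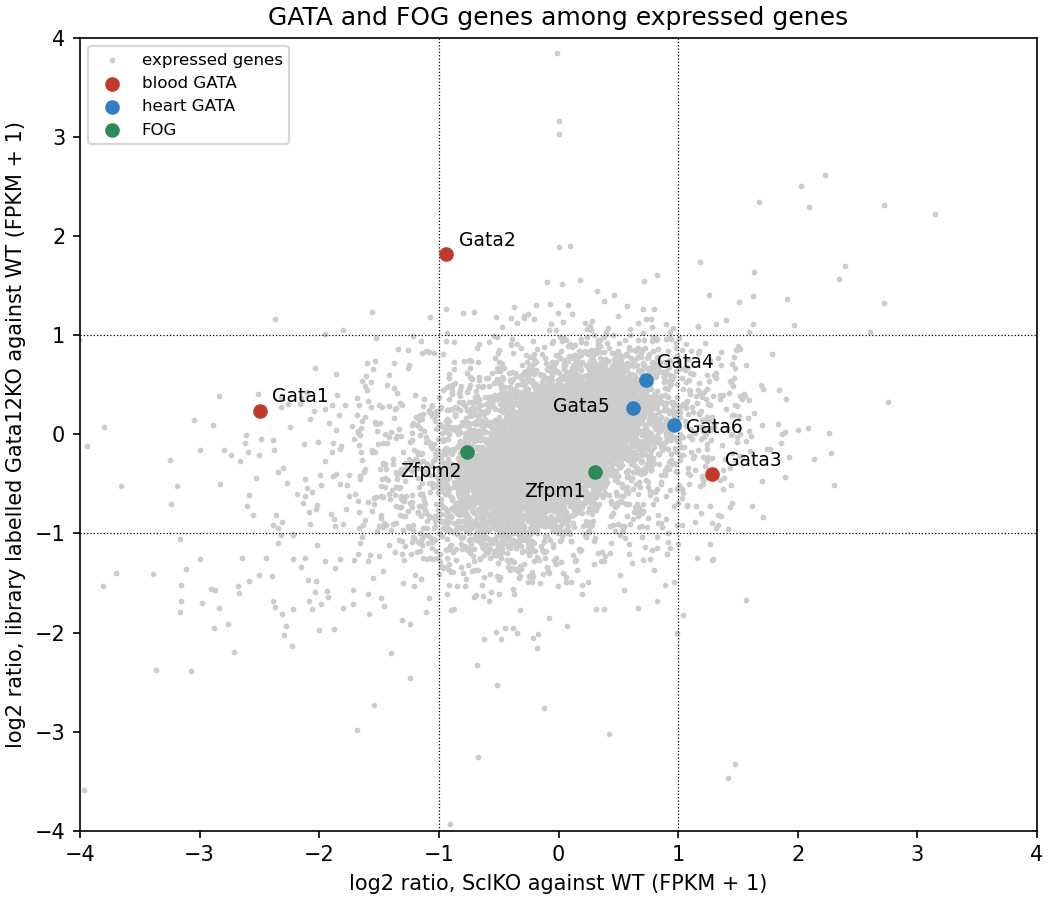
Log2 ratio of FPKM + 1 in Gata12KO against WT (vertical axis) over that in SclKO against WT (horizontal axis) for 11015 expressed genes, with the GATA and FOG genes coloured; both axes share the WT library, dotted lines mark 2-fold, and 65 genes lie outside the range drawn. Gata2 lies at upper left (-0.94 and 1.82), Gata1 far left (-2.50) and Gata3 right (1.29).

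Genes with a pattern like each member were sought among 7603 genes with at least 5 FPKM in any library, by the distance between their 2 log2 ratios against WT. Gata1 was closest to Nos3, the endothelial nitric oxide synthase, at a distance of 0.03, followed by Prkch and Ets2 at 0.17 and 0.18. The place of Gata1 rests on the 1 FPKM added to its value of 0 in SclKO. With 0.1 added its ratio there was -5.57, so its nearest genes and their number depend on that choice. Gata2 had no close match: Lrp11, Hoxd8 and Zfp503 were nearest, at 0.60, 0.63 and 0.76, and 0 genes lay within 0.25. Within that distance lay 5 genes for Gata1 and 18 for Gata3, whose nearest were Foxo4, Capn6 and Ecm1. The others were in crowded places, with 86 genes around Gata6 (nearest Akap12, Ece1 and Il6st) and 177 around Gata4 (Acat3, Sh3bp1 and Mmp14). Zfpm2 had 178 (Cmpk1, Rreb1 and Slc15a2), Gata5 374 (Stip1, H1f10 and Cars) and Zfpm1 381 (Plvap, Ctsh and Zfp771). With 3 libraries such a likeness is a description of ratios.

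The partners with which GATA factors act were compared as lists, each set beside the median log2 ratio of all expressed genes. That median was -0.03 in SclKO against WT, -0.08 in Gata12KO against WT and -0.06 in Gata12KO against SclKO. Under TPM it was -0.14, 0.52 and 0.66 in the same order, and list counts under TPM include that shift of all genes. Of 7 genes of the Scl complex, 3 were lower in SclKO (median -0.79) and 0 passed the limit in Gata12KO against WT (median -0.16). Those lower in SclKO were Tal1, the deleted gene, Lyl1, its close relative, and Cbfa2t3, a corepressor of the complex. Lyl1 was at 21.3, 1.35 and 17.5 FPKM and Cbfa2t3 at 7.64, 0.664 and 6.74 FPKM in WT, SclKO and Gata12KO. The same 3 genes were higher in Gata12KO than in SclKO. In Gata12KO against WT the highest of the list were Lmo2, the bridging protein, at 64.3 beside 102 FPKM, and Tal1, at 38.7 beside 51.0 FPKM. Under TPM 2 of the list were higher than WT there.

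Corepressors that FOG proteins recruit (the NuRD complex and CtBP) ranged in level from Chd3, at 2.42, 3.31 and 3.04 FPKM, to Rbbp7. Of 15, none was past the limit in SclKO against WT (median 0.17), where the most abundant were Rbbp7 at 109 beside 75.8 FPKM and Hdac2 at 97.1 beside 88.1 FPKM. Mbd2, a methyl-CpG-binding subunit, alone was lower in Gata12KO than WT, at 12.1 beside 27.1 FPKM (list median -0.02), a call lost under TPM, with an equal sum over longer transcripts and with the length trend removed. Gata12KO against SclKO had none past the limit (median -0.25), or 1 higher under TPM. Of 5 coactivators none passed in any comparison (medians 0.26, 0.14 and -0.13), with Brd3 at 30.5, 36.6 and 30.9 FPKM. Of 4 other genes with a GATA-type zinc finger, 3 were expressed and none passed (medians -0.01, 0.02 and -0.05), with Gatad1 at 35.0, 24.5 and 35.5 FPKM and Rere at 33.6, 33.2 and 32.0 FPKM. Under TPM 1 of these was higher in Gata12KO than in SclKO.

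Red cell genes known to be driven by Gata1 were lower in both knockout libraries, including the library labelled Gata12KO, in which Gata1 itself was not. Of 13 listed genes 12 matched and 8 were expressed; all 8 were lower in SclKO (median -2.83, and -1.94 over the 12) and 7 in Gata12KO (median -1.69). Some of the 8, Gfi1b and Hba-x among them, reached the minimum through WT alone and so had to be lower elsewhere, and the counts describe the list only. Hba-x, an embryonic alpha-type globin, was at 71.3 FPKM in WT, 0.0881 in SclKO and listed at 0 in Gata12KO. Hbb-bh1, an embryonic beta-type globin, was at 76.8, 0.258 and 5.66 FPKM, and Hbb-y at 7.89, listed at 0 and 1.76 FPKM. Globin genes have near-identical copies between which reads may be split. In Gata12KO against SclKO 4 of the 8 were higher (median 0.95), led by Hbb-bh1, Hbb-y and Nfe2, the last at 1.96 beside 0.217 FPKM.

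Of 6 megakaryocyte genes 4 were expressed, and 4 were lower in SclKO (median -1.69) and 2 in Gata12KO (median -1.06). Over all 6 the medians were -1.44 and -0.63. Of all expressed genes, 4.24% were lower in SclKO and 3.75% in Gata12KO. Itga2b was lower in SclKO alone, and Pf4, a platelet chemokine that reached the minimum through WT alone, was at 2.99, 0.0909 and 0.567 FPKM. Itga2b alone was higher in Gata12KO than in SclKO (list median 0.50), and under TPM 2 of the list were. Of 8 blood progenitor genes 7 were expressed, of which 5 were lower in SclKO (median -1.94) and 3 in Gata12KO (median -1.08). Over all 8 the medians were -1.78 and -0.58. Spi1 and Runx1 reached the minimum through WT alone, so their direction was set by that filter. Spi1, the myeloid factor PU.1, was at 6.58, 0.0312 and 0.954 FPKM, Myb at 6.77, 0.143 and 1.06 FPKM, and Runx1 at 4.56, 0.452 and 0.854 FPKM. Hhex was at 37.9, 8.67 and 35.8 FPKM, and with Fli1 (39.5, 12.2 and 44.8 FPKM) it was higher in Gata12KO than in SclKO (list median 0.85), and 4 of the list were under TPM and 3 with the equal sum over longer transcripts.

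Among 17 heart partners and targets of Gata4, 11 were expressed, and most were not past the limit in SclKO, where the heart GATA genes stood highest. Hand1 alone was higher there, at 209 beside 72.2 FPKM, and Mef2c alone lower, at 1.77 beside 5.09 FPKM (list median -0.23). In Gata12KO Hand2 was lower than WT, at 19.4 beside 54.5 FPKM (median -0.34), a call lost under TPM, where the median was 0.12. In Gata12KO against SclKO 1 was higher and 4 were lower (median -0.80), with Hand1 at 61.7, Mef2c at 6.40 and Hand2 at 19.4 beside 43.1 FPKM the largest, and under TPM 2 were higher and 0 lower. Contractile and hormone genes of the list differed in level. Nppb and Myh6 were listed at 0 or near it in every library, and Nppa and Myh7 stayed under 1 FPKM. Tnnt2 was at 4.57, 7.03 and 2.86 FPKM in WT, SclKO and Gata12KO, and was lower in Gata12KO than in SclKO. Tnnc1 was at 2.14, 1.68 and 1.48 FPKM, Tnni3 at 1.73, 1.07 and 2.69 FPKM and Actc1 at 1.79, 0.920 and 0.577 FPKM.

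Genes of other cells in which GATA factors act were read beside these results. Endothelial genes, the sorted population, were lower in SclKO for 6 of 11 expressed (median -1.41), led by Edn1 (7.45 to 0.330 FPKM), Nos3 (17.7 to 2.31) and Esam (88.0 to 14.9). Under TPM 8 of the 11 were lower there. In Gata12KO against WT Kdr was higher, at 96.3 beside 42.1 FPKM, and Edn1 was lower, at 1.78 FPKM (list median 0.19). Under TPM 2 were higher and 1 was lower. In Gata12KO against SclKO 8 of 11 were higher (median 1.58), led by Nos3, Esam and Icam2. Under TPM 11 of 11 were (median 2.39), beside a median of 0.66 over all expressed genes under that scaling. The list summed to 692, 312 and 821 FPKM in WT, SclKO and Gata12KO.

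Mesenchyme genes summed to 78.5, 141 and 32.9 FPKM in WT, SclKO and Gata12KO. Of 7 expressed, 3 were higher in SclKO (median 0.90), namely Col3a1, Pdgfrb and Snai2. Snai2, a factor of migrating mesenchymal cells, was at 11.3, 31.8 and 5.36 FPKM, and Col3a1, a fibrillar collagen, at 1.39, 8.06 and 1.04 FPKM. Acta2, smooth muscle actin, was at 42.1, 55.1 and 11.7 FPKM. In Gata12KO 2 were lower than WT, Acta2 and Col1a1 (median -0.86; 1 lower under TPM, median-ratio scaling and the equal sum over longer transcripts), and against SclKO 6 were lower (median -1.76), led by Snai2, Col3a1 and Acta2. The part of endothelial and mesenchymal cell content in the Gata2, Gata3 and heart GATA levels was not tested.

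Of 11 endoderm genes 5 were expressed. Afp, Apoa1, Hnf4a and Foxa2 stayed under 1 FPKM in every library, while Ttr was at 2.11, 0.968 and 1.19 FPKM, Dab2 at 6.41, 7.66 and 7.07 FPKM and Lama1 at 1.11, 2.48 and 0.833 FPKM. The list summed to 63.7, 35.5 and 105 FPKM, mostly Sox7, which endothelium also expresses. Sox7 was lower in SclKO (list median -0.66, and -0.09 over the 11), a call lost with an equal sum over longer transcripts. In Gata12KO against WT none passed (median 0.12) at 87.0 beside 48.3 FPKM for Sox7 and 7.93 beside 4.34 FPKM for Sox17, while 2 were higher under TPM. Sox7 and Sox17 were higher in Gata12KO than in SclKO (median 0.15). Trophoblast, which uses Gata2 and Gata3, showed 7 of 8 genes under 1 FPKM in every library. Cdx2, also a gene of posterior mesoderm, was the exception at 1.68, 16.7 and 5.71 FPKM, higher than WT in both. The trophoblast list summed to 3.29, 17.8 and 7.38 FPKM.

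Leukocyte genes were few, with 3 of 7 expressed, and Ptprc (CD45) listed at 0 in WT and SclKO. Of these, 3 were lower in SclKO (median -2.58) and 2 in Gata12KO (median -1.35), or 1 under TPM. In Gata12KO against SclKO 2 were higher (median 1.10), or 3 under TPM. Over all 7 genes the median against WT was -0.16 in SclKO and -0.16 in Gata12KO, and 0.04 in Gata12KO against SclKO. Mpo, the myeloperoxidase gene, was at 10.2, 0.286 and 3.37 FPKM, and Tyrobp, a myeloid adaptor, at 4.99, listed at 0 and 1.15 FPKM. The list summed to 20.9, 2.18 and 7.62 FPKM.

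**Figure D4:**
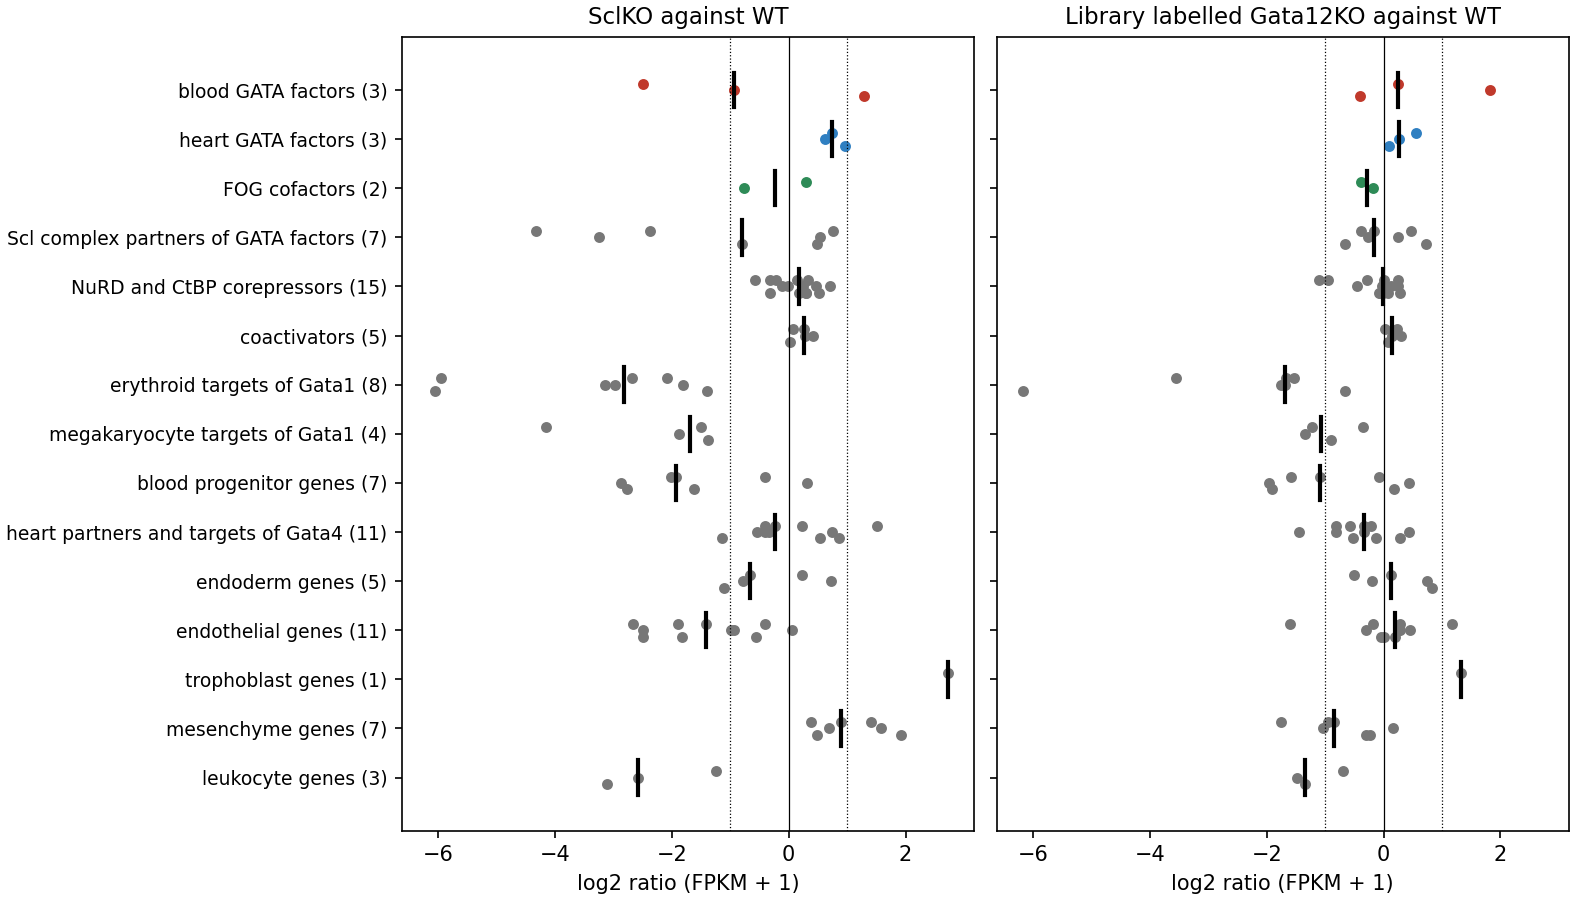
Log2 ratio of FPKM + 1 for each expressed gene of a list (points; the number of genes stands beside the list's name) in SclKO and Gata12KO against the same WT library, with the list's median as a vertical bar and dotted lines at 2-fold. Red cell targets of Gata1 lie left of 0 in both panels, with medians of -2.83 and -1.69, while coactivators have medians of 0.26 and 0.14.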

How the data were processed

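RNA of 3 libraries of sorted embryoid body endothelial cells, 1 per group, was measured with a Nugen Encore Complete kit and 50 nt HiSeq reads, per the labels' protocols. The authors deposited Cufflinks FPKM for 30123 RefSeq entries per library, with lower and upper bounds, per the file headers. FPKM (fragments normalised to length and depth) are stored with other text attributes. Per the submitters' processing notes, TopHat2 2.0.4, Cufflinks 2.0.1 and Cuffdiff were used, and the builds mm9 and hg19 are listed without a role. Coordinates are as in the files, on mm9.

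Accessions were mapped to symbols (29059 of 29646 by the RefSeq table, 177 by GENCODE, 410 by neither), and 134 entries whose symbols differed between files were left out. FPKM and bounds were summed per symbol, with 1 entry for each GATA and FOG gene. Ratios are log2 of FPKM + 1, computed with Python 3.11.15 and pandas 2.3.3 over all genes, and the size rule was tested on simulated data. Fragment numbers are (2 × FPKM / (upper bound - FPKM)) squared, and depth was fitted from them. Depth differed up to 50.4M against 28.3M fragments, so at an equal FPKM and transcript length counting error is smallest in Gata12KO. For a single gene it follows that gene's own fragments, and Gata3 had 670 in Gata12KO and 1390 in SclKO.

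With 1 library per group no test was made. Members, the 16 lists (129 genes) and alternatives were chosen with earlier results of these data known. Named genes are every member, up to 3 called genes of each list with the largest ratio (otherwise up to 2 of highest FPKM), and the 3 genes of 300 nt or longer most like each member. A few list genes that this rule names are not reported here. Gpihbp1, Snord37, Snord89, Rplp0, Gata5os, Gfi1b, the sort antigens, the contractile and hormone genes and defining markers were named after their values were seen. Alternatives were TPM, median-ratio scaling, an equal sum over longer transcripts, removal of the trend over transcript length, pseudocounts, filters, the fold limit and the entry used.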

Additional observations from a re-analysis of the deposited data

How the results depend on the processing

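No gene past the limit changed direction under any alternative run. Under TPM, 2 genes were lower in SclKO than WT (Gata1 and Gata2), 2 higher in Gata12KO than WT (Gata2 and Gata4) and 0 lower in Gata12KO than SclKO. With the sum over longer transcripts made equal 2 were higher in SclKO than WT (Gata3 and Gata6). With a pseudocount of 0.1, 2 were higher and 3 lower in SclKO than WT, and with 5, 0 and 0 (Gata3 0.94, Gata1 -0.95). With a limit of 1.5-fold, 4 were higher and 3 lower in SclKO than WT, and 3 lower in Gata12KO than SclKO. The blood share was 41.7%, 11.3% and 64.4% in WT, SclKO and Gata12KO with Gata3 left out, and 31.5%, 26.3% and 26.4% with Gata2 left out. The cause of these shifts was not tested beyond the construction of each alternative. Of 240 ratios of single genes under the alternatives, 194 kept their side of the limit and, if short of it, stayed within the bounds. Another 28 left the bounds, 15 passed the limit and 3 fell short of it. The alternatives on the entry used and on the minimum FPKM are counted among the 194 but could move none of these genes. Each gene has 1 entry and reached 1 FPKM in a library of every pair compared. One alternative, a minimum set in the libraries compared, was chosen after seeing the data and changed no count. No paired analysis was possible because each group has 1 library. Gata5 rests on 75 fragments in WT, which leaves its bounds wide.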

Other observations

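The genes next to each GATA and FOG gene on mm9 were read as well. Of 16 flanking genes 8 reached 1 FPKM in any library, and 0 of 16 were past the limit in any comparison. Hdac6, a deacetylase gene 11371 bases from Gata1, was at 10.1, 7.14 and 7.86 FPKM in WT, SclKO and Gata12KO, where Gata1 was listed at 0 in SclKO. Rpn1, 93360 bases from Gata2, was at 16.1, 19.2 and 18.2 FPKM, and Dnajb8 on the other side was listed at 0 in WT and SclKO. The transcript 4930412O13Rik, 2646 bases from Gata3, was at 1.98, 2.21 and 1.39 FPKM. Oxr1, 342890 bases from Zfpm2, was at 16.3, 8.88 and 11.8 FPKM, with a log2 ratio of -0.81 in SclKO against WT beside -0.76 for Zfpm2. Neil2, 5390 bases from Gata4, was at 1.54, 0.536 and 0.614 FPKM. Its log2 ratio in SclKO against WT was -0.72 beside 0.73 for Gata4. The 16 flanking genes were chosen by position, but those named here are a part of them and were not picked by a rule set beforehand.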
